A study of Rattus norvegicus with 6 samples.

Results

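The cytosolic ribosomal protein genes were examined in the renal cortex of 6 male Sprague-Dawley (Crl:CD(SD)) rats, 5 weeks old at purchase, of which 3 received corn oil (vehicle) for 4 weeks and 3 received benzyl acetate, a fragrance and flavour ester, at 1000 mg/kg/day for the same 4 weeks. Total RNA of each animal was labelled with Cy3 and hybridised to its own 1-colour Agilent expression array, so each group holds 3 biological replicates. Members were the genes whose RefSeq symbol starts with Rpl or Rps and a digit, together with Rplp0, Rplp1, Rplp2 and Rpsa; S6 kinases and symbols of pseudogenes were left out. The array carried 243 probes for 83 such genes. Of these, 81 were detected and tested, among 31179 genes tested in all. They comprise 44 genes of the large subunit, 30 of the small subunit and 7 paralogs whose symbols carry an added l ("like"), called l forms here. Rpl26, Rpl37 and Rps9 were among the members not analysed here, since no probe was matched to them.

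Each ribosome is assembled from a large and a small subunit, and every subunit joins ribosomal RNA to a set of proteins that are needed in near-equal numbers. Their transcripts are among the most abundant of most cells. They share a terminal oligopyrimidine (TOP) element, a C at the start of the RNA followed by a run of C and U, through which the kinase complex mTORC1 and the RNA-binding protein LARP1 control their translation together. Several of these transcripts, such as Rplp0, Rpl13a and Rps18, are widely used to normalise other measurements.

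The start sites show letters that many of the members share. RefSeq promoter sequences of the GRCr8 assembly were found for 64 of the 81 members. Each line gives 15 bases before and 15 bases from the annotated start, on the strand of the transcript, with a run of at least 5 pyrimidines that begins at the start in capitals. The first 5 genes have a TOP-type start and are described by value further on, Rpl13a has its pyrimidines just before the annotated start, and the rest are paralogs and parent genes.
Rplp0 (chr12:46718376-46718405, minus strand): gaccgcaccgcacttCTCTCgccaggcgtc
Rpl9 (chr14:43247575-43247604, plus strand): gacgaaggacgttctCTCTTTgccccatct
Rpl19 (chr10:83519049-83519078, plus strand): cgcgaccagcaagctCTTTCCTTTCgctgc
Rpl37a (chr9:81748076-81748105, plus strand): gcatgcccgttgcgtCTCTTCCTCTTCggg
Rps18 (chr20:4933730-4933759, plus strand): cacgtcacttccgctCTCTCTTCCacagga
Rpl13a (chr1:104748899-104748928, minus strand): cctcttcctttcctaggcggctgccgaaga
Rpl22 (chr5:168117946-168117975, plus strand): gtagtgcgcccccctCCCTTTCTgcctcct
Rpl22l1 (chr2:113683181-113683210, plus strand): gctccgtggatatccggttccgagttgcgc
Rpl3 (chr7:113507976-113508005, minus strand): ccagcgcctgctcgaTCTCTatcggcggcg
Rpl3l (chr10:14258431-14258460, plus strand): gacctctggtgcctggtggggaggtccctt
Rps12l4 (chr7:25007015-25007044, minus strand): gcgaaggcacagaatgctggcgcagggtgc

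A C at the annotated start followed by at least 4 further C or T, searched on the transcript strand only, stood at 23 of the 60 genes that are not l forms (38.3%) and at 0 of the 4 l forms with a sequence, against 2.63% of all 33469 promoters of the table. When the element could begin anywhere within 10 bases of the start, 46 of the 60 genes (76.7%), 2 of the 4 l forms and 28.9% of all promoters held it. The parents of these l forms were not clearly different from them. At the start itself, Rpl22 held the element, and Rpl3, Rpl36a and Rps12 did not. Within 10 bases, the parents Rpl22 and Rpl36a and the l forms Rpl3l and Rpl36al1 held it. The letters CTTCCG, searched on both strands of the 300 bases, were in 33 of the 60 genes (55%), in 2 of the 4 l forms and in 16.6% of all promoters. AAGATGG, also on both strands, was in 8 of the 60 (13.3%), in 0 of the 4 l forms and in 7.01% of all promoters. TATAAA was in 7 of the 60 (11.7%), in 0 of the 4 l forms and in 14.2% of all promoters. The searches were independent of one another and may overlap. A match is a description of these letters only. The 23 genes with the element at the start had a median log2 difference between the groups of 0.028, and the 37 without it there had 0.024.

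The check of the tissue and of the arrays can be given briefly. All 7 proximal tubule markers listed (Slc34a1, Lrp2, Slc5a2, Slc22a6, Miox, Cubn and Slc13a3) were detected, and their summed signal, in multiples of the array's 75th percentile, was 1937 to 2057 with vehicle and 1989 to 2202 with benzyl acetate. The T and NK cell list had 7 of 8 markers detected, all 7 with a lower treated mean, with sums of 2.20 to 4.73 with vehicle and 1.80 to 2.16 with benzyl acetate, and the B cell list 2 of 4, with sums of 0.0901 to 0.195 and 0.0670 to 0.136. All 7 T and NK cell markers were highest on vehicle 3, where their median stood 0.91 log2 above each gene's mean, against 0.14 and -0.18 on vehicle 1 and 2. The sums with vehicle and with benzyl acetate were 156 to 160 and 133 to 164 for 6 of 6 collecting duct markers, 27.7 to 34.0 and 29.2 to 37.4 for 4 of 4 podocyte markers, and 28.6 to 31.8 and 33.4 to 35.9 for 5 of 5 endothelial markers. They were 7.495 to 9.763 and 6.37 to 8.97 for 6 of 6 macrophage markers, 0.794 to 1.53 and 1.02 to 1.52 for 4 of 5 fat markers, and 5.58 to 6.24 and 5.18 to 6.59 for 4 of 5 proliferation markers. A sum can hide markers that differ. Of the 4 fat markers, 1 was higher and 3 lower with benzyl acetate, with log2 differences from -2.94 to 0.34. The groups did not overlap for 2 of the 4, both lower, against 12.8% of all genes in either direction. None of the 4 passed the threshold in limma (lowest adjusted p = 0.669). Cd3e, Cd79a, Ms4a1, Plin1 and Top2a were not among the genes tested. The part of these cells in the values below was not tested, and in whole tissue fewer cells of a type cannot be told apart from less RNA per cell. The 75th percentile of the signal ran from 883 on benzyl acetate 3 to 1057 on vehicle 3. Benzyl acetate 3 also stood highest when the 5' control probes of Gapdh were subtracted from the 3' ones, a measure that rises with RNA breakdown, at 2.60 log2 where the other arrays had 2.37 to 2.45. For Pgk1 the same measure set it less apart, at 5.61 against 5.41 to 5.56. Slide 1 held vehicle 1, and slide 2 held the 5 remaining arrays.

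None of the ribosomal protein genes passed the threshold between benzyl acetate and vehicle. Limma called 0 of 81 members at an adjusted p under 0.05, where it called 0% of all genes tested, and the lowest adjusted p of a member was 0.709. At an unadjusted p under 0.05 it marked 1 of 81 members (1.23%), against 6.74% of all genes. The 3 treated arrays lay entirely above the 3 vehicle arrays for 8 members and entirely below for 0, together 9.88% of the members, against 12.8% of all genes. Among 1678 other genes of like signal, between the 10th and the 90th percentile of the members, the last 2 shares were 2.74% and 14.1%. The members' shares lie at or below the background of the whole array, whose genes are mostly dimmer.

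The median log2 difference of the 81 members, benzyl acetate minus vehicle, was 0.017, and that of all genes tested was 0.012. The members ranged from -0.11 for Rpl30l3 to 0.44 for Rps12l4. The means of the groups differed by less than 1.05-fold for 67 members and by less than 1.1-fold for 78. The 95% interval of the difference lay inside a 1.25-fold change for 74 of 81 members (91.4%), against 38.6% of all genes tested, and inside a 1.5-fold change for 78 (96.3%), against 73.9%. Among 1678 other genes of like signal, between the 10th and the 90th percentile of the members, these shares were 72.7% and 93.4%, and the median difference was 0.029. The data therefore bound the difference of most members closely in both directions, which a p above the threshold alone would not do. Of the members, 61 were on the higher side and 20 on the lower, but this split rests on the scaling: under median scaling or quantile normalization 33 were higher and 48 lower, and under cyclic loess 36 and 45.

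**Figure D1:**
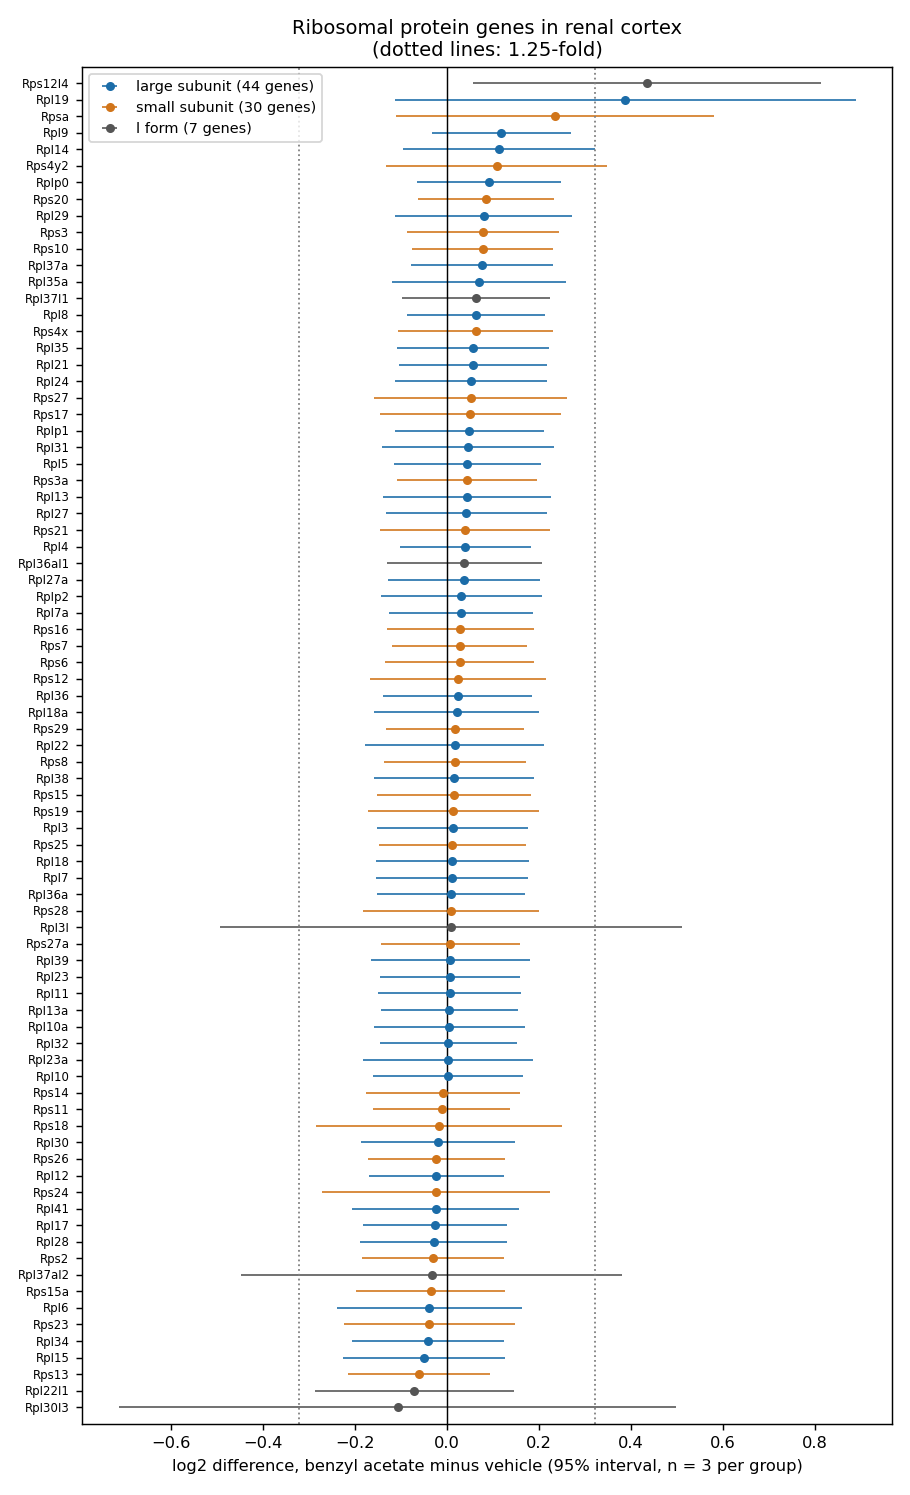
Log2 difference between benzyl acetate and vehicle for the 81 ribosomal protein genes, ordered by size; points are differences of group means, bars 95% intervals from limma (n = 3 per group), colours the subunit or l form, and dotted lines a 1.25-fold change. The intervals of 74 genes stay inside the dotted lines, and the wide ones belong to Rpl19, Rpsa, Rps4y2 and 4 l forms.

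The medians of the subunits were close. The 44 large subunit genes had a median log2 difference of 0.019, with 36 higher and 8 lower, and the 30 small subunit genes had a median of 0.017, with 21 higher and 9 lower. The large minus the small subunit median was 0.002. Array by array, that same difference was 0.014, -0.017 and -0.0019 on the vehicle arrays and 0.010, -0.028 and 0.028 on the benzyl acetate arrays. Its sign varied within both groups, and the groups overlapped.

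Relative to each gene's mean over the 6 arrays, the median of the 81 members was -0.040, 0.0063 and -0.0072 log2 on vehicle arrays 1 to 3, and -0.024, 0.0022 and 0.061 on benzyl acetate arrays 1 to 3. Benzyl acetate 3 was highest and vehicle 1 lowest, and the groups overlapped. Of the 81 members, 46 had their highest value on benzyl acetate 3 and 33 their lowest on vehicle 1. Other bright genes had a like shift: of 1678 genes between the 10th and the 90th percentile of the members' signal, 702 were highest on benzyl acetate 3 and 681 lowest on vehicle 1, with medians of 0.052 and -0.054 there. Benzyl acetate 3 was also the array with the lowest 75th percentile and the highest Gapdh 3' minus 5' difference, and vehicle 1 the array alone on its slide; the part of these in the shift was not tested. Without benzyl acetate 3 the median difference of the members was 0.0034, with 44 higher and 37 lower, and without vehicle 1 it was 0.0074, with 49 higher and 32 lower. It was 0.044 without benzyl acetate 1, 0.035 without vehicle 2, 0.030 without benzyl acetate 2 and 0.022 without vehicle 3.

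**Figure D2:**
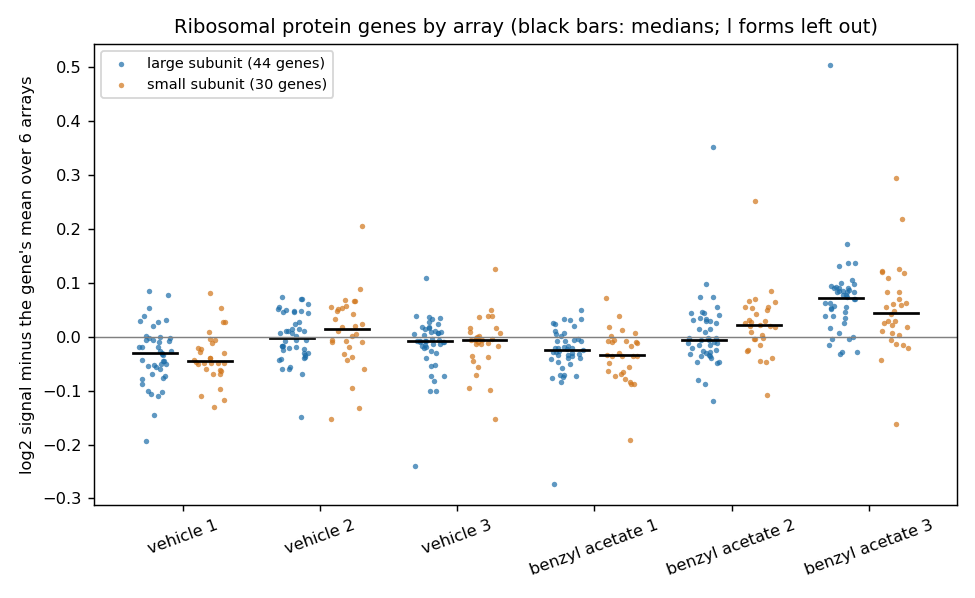
Log2 signal of each ribosomal protein gene minus its mean over the 6 arrays, by array, for the 44 large and 30 small subunit genes, with black bars at the medians. Both subunits lie highest on benzyl acetate 3 (medians 0.072 and 0.044) and low on vehicle 1 (-0.031 and -0.045) and benzyl acetate 1 (-0.025 and -0.035), which belong to different groups.

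After the group means were taken off, the members varied together to a degree. Over the 6 arrays the median Pearson correlation of 3240 pairs of members was 0.35, and 70.9% of pairs were above 0. The median was 0.41 within the large subunit, 0.43 within the small subunit and 0.38 between them. For the 67 mitochondrial ribosomal protein genes, which build the separate ribosome of mitochondria, it was 0.17, and for pairs among 2073 other genes, every 15th in alphabetical order, it was 0.0090. It was 0.045 for 17 translation factors and other TOP genes and 0.054 for 29 ribosome biogenesis genes. None of these sets was matched for signal. The median log2 signal was -1.12 over all genes tested and 6.74 over the members. No correlation was computed for other genes of the members' signal, so the part of signal in these values was not tested. Without benzyl acetate 3, a check chosen after the data were seen, the median over member pairs was 0.28. These values describe 6 arrays that also share labelling and scaling, and pairs are not independent.

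The spread between animals was small. The residual SD within groups had a median of 0.053 log2 over the 81 members, against 0.14 over all genes tested. It lay below the median of all genes for 75 of 81 members. The spread of all genes was smaller at brighter spots, and the 74 members that are not l forms all lay above the array's 75th percentile on all 6 arrays, with mean log2 signals from 3.58 to 8.90 above it. The 1678 other genes between the 10th and the 90th percentile of the members' signal had a median residual SD of 0.075. The steadiest member was Rpl4, a protein of the wall of the peptide exit tunnel. Its log2 signal relative to the 75th percentile was 6.33, 6.35 and 6.36 with vehicle and 6.38, 6.40 and 6.38 with benzyl acetate. The treated arrays lay above the vehicle arrays, yet by only 0.039 (95% interval -0.10 to 0.18), and the dimmer probe of Rpl4 gave -0.047. That interval is much wider than the spread of Rpl4 itself because limma draws each gene's SD, here 0.013, towards a value shared by all genes, 0.12. Rps7 and Rpl12, each with a residual SD of 0.025, were the next steadiest. Their differences were 0.028 (-0.12 to 0.17) and -0.023 (-0.17 to 0.12).

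**Figure D3:**
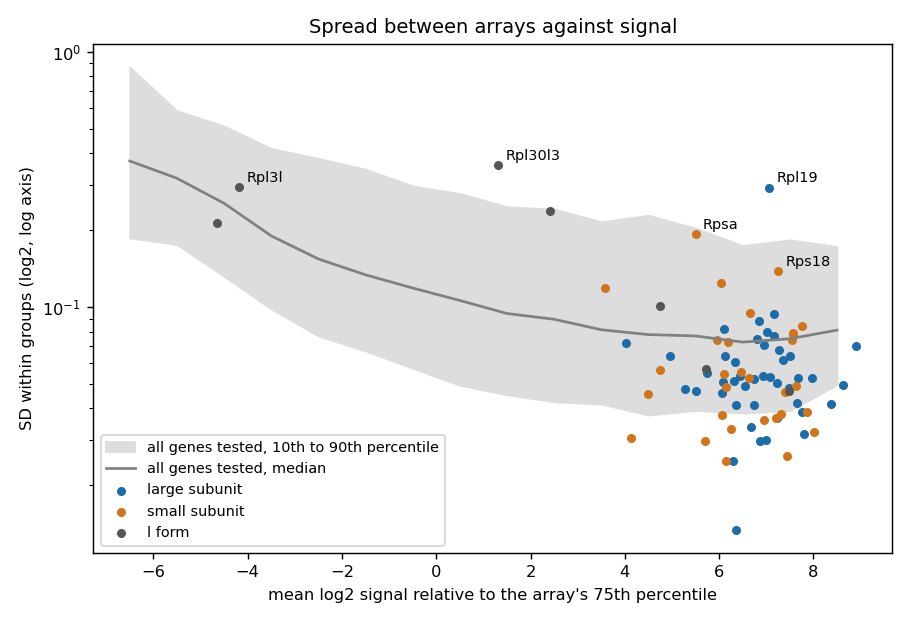
Residual SD within groups (log axis) against the mean log2 signal for the ribosomal protein genes (points) and for all genes tested (grey line, median; grey band, 10th to 90th percentile, in steps of 1 log2). Most members fall below the grey line at their signal, and Rpl19, Rpsa, Rpl30l3 and Rpl37al2 are among those that lie well above it.

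The stalk of the large subunit, which recruits the elongation factors, is built of Rplp0, Rplp1 and Rplp2. Rplp0, its base, had log2 signals of 8.29, 8.33 and 8.34 with vehicle and 8.36, 8.41 and 8.47 with benzyl acetate. All treated arrays were above all vehicle arrays on this brightest probe, with means of 8.32 ± 0.024 and 8.41 ± 0.054 (SD, n = 3). The difference of 0.091 (-0.065 to 0.25) did not pass in limma (adjusted p = 0.827). The groups overlapped on the dimmer probes of Rplp0, which differed by 0.064 and 0.0045. Rplp1 and Rplp2, the acidic stalk proteins, overlapped between the groups and differed by 0.048 (-0.11 to 0.21) and 0.032 (-0.14 to 0.21). RPL5 and RPL11, which carry the 5S ribosomal RNA into the large subunit, also overlapped: Rpl5 differed by 0.044 (-0.12 to 0.20) and Rpl11 by 0.0056 (-0.15 to 0.16). At the exit of the peptide tunnel, Rpl35 differed by 0.057 (-0.11 to 0.22).

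Rpl9, a protein near the base of the stalk, had the lowest p of the genes that are not l forms. Its log2 signals were 6.65, 6.61 and 6.57 with vehicle and 6.70, 6.74 and 6.74 with benzyl acetate, so the groups did not overlap. The difference was 0.12 (SE 0.062, interval -0.034 to 0.27; adjusted p = 0.775 in limma), and the second probe of Rpl9 gave 0.053. Rps20, a protein of the head of the small subunit, read 7.39, 7.38 and 7.38 with vehicle and 7.44, 7.46 and 7.51 with benzyl acetate. Here too the groups were apart, by 0.085 (-0.062 to 0.23). Rps10, Rpl37a and Rpl8 were likewise higher on all treated arrays, by 0.078, 0.076 and 0.062. Under the other ways of processing, Rpl37a ran from -0.057 to 0.090 and Rpl8 from -0.015 to 0.088, so the direction of these genes is not fixed; Rps10 ran from 0.0067 to 0.0998. Rpl14, a large subunit protein, differed by 0.11 (-0.096 to 0.32) with overlap.

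In the small subunit, Rps2 and Rps3 line the channel through which the mRNA enters. Rps2 read 7.85, 7.91 and 7.86 with vehicle and 7.79, 7.86 and 7.88 with benzyl acetate. The groups overlapped, with a difference of -0.031 (-0.19 to 0.12). Rps3 differed by 0.078 (-0.087 to 0.24) with overlap, and its dimmer probes gave -0.048 and -0.0055, so its direction is not fixed. Rps6, the substrate of the S6 kinases, read 7.59, 7.65 and 7.61 with vehicle and 7.59, 7.63 and 7.71 with benzyl acetate. The ranges overlapped and the difference was 0.028 (-0.13 to 0.19). Rps27a, which is made as a fusion with ubiquitin, differed by 0.0074 (-0.14 to 0.16). Rps4y2, a second gene for the RPS4 protein, differed by 0.11 (-0.13 to 0.35) and Rps4x by 0.062 (-0.11 to 0.23).

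Among members often used as reference genes, Rpl32 and the brightest probe of Rpl13a had small differences with overlap between the groups. Rpl32 read 6.84, 6.89 and 6.86 with vehicle and 6.84, 6.86 and 6.90 with benzyl acetate, a difference of 0.0029 (-0.15 to 0.15). Rpl13a read 6.987, 6.996 and 6.965 with vehicle and 6.95, 7.03 and 6.98 with benzyl acetate, a difference of 0.0053 (-0.14 to 0.15). The second probe of Rpl13a read 6.75, 6.78 and 6.80 with vehicle and 6.83, 6.89 and 6.83 with benzyl acetate, without overlap and 0.071 apart. Rps18 had a wider spread: 7.30, 7.10 and 7.38 with vehicle and 7.32, 7.32 and 7.09 with benzyl acetate. One array of each group stood low, the means were 7.26 ± 0.14 and 7.24 ± 0.13 (SD, n = 3), and the difference was -0.017 (-0.28 to 0.25).

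Rpl19, another common reference gene, depended on the probe. Its brightest probe read 6.87, 6.91 and 6.82 with vehicle and 6.79, 7.41 and 7.56 with benzyl acetate. Benzyl acetate 2 and 3 stood high, while benzyl acetate 1 was below all vehicle arrays. The difference of 0.39 (-0.11 to 0.89) did not pass in limma (adjusted p = 0.775), and it was 0.622 without benzyl acetate 1 and 0.233 without benzyl acetate 3. The other 3 probes of Rpl19 gave 0.056, -0.044 and -0.039, and none of them read above all vehicle arrays on benzyl acetate 2 or 3. Rpsa, which encodes a small subunit protein also known as the laminin receptor, had a similar pattern with more agreement between its probes. Its brightest probe read 5.43, 5.37 and 5.35 with vehicle and 5.31, 5.75 and 5.79 with benzyl acetate. Again benzyl acetate 2 and 3 were high and benzyl acetate 1 was lowest, with a difference of 0.24 (-0.11 to 0.58; adjusted p = 0.796 in limma), which was 0.39 without benzyl acetate 1 and 0.147 without benzyl acetate 3. The other 3 probes of Rpsa also read highest on benzyl acetate 2 and 3, with differences of 0.10, 0.030 and 0.076.

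Across the 72 members with several detected probes, the probes of a gene mostly gave small differences, but often not of the same sign. The range between the probes of a gene had a median of 0.065 log2, which is larger than the members' median difference of 0.017. It was above 0.2 for 5 genes, Rps16, Rpl36a, Rpl19, Rpl28 and Rpsa. In 36 of the 72 the probes differed in sign. When each gene was represented by its probe of lowest signal, 46 members were higher and 35 lower. Rps16, a protein of the small subunit head, had the widest range. Its dimmest probe read 1.55, 3.03 and 1.41 with vehicle and 1.44, 1.46 and 1.48 with benzyl acetate, so vehicle 2 alone stood apart, while its brightest probe differed by 0.029. For Rpl36a the dimmest of 5 probes differed by 0.46 and the other 4 by -0.019 to 0.035. No spot of the 243 probes was saturated or flagged as an outlier.

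**Figure D4:**
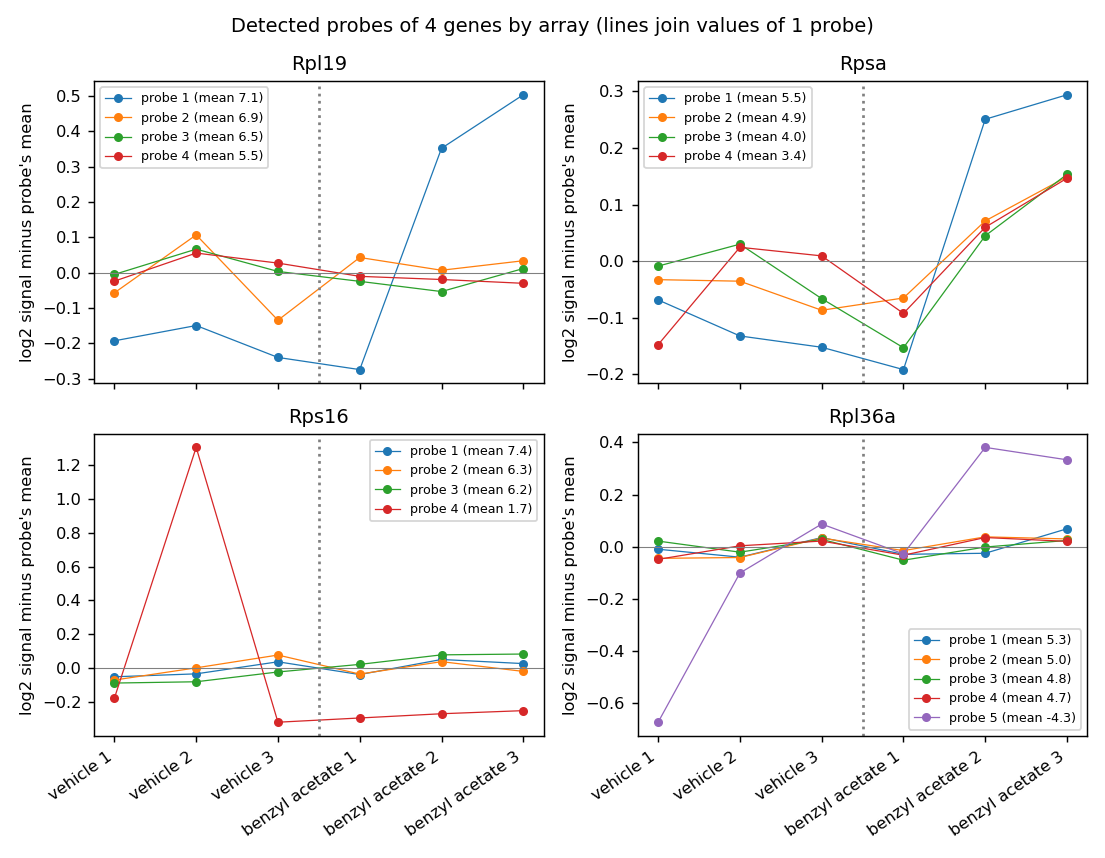
Log2 signal of each detected probe of Rpl19, Rpsa, Rps16 and Rpl36a minus that probe's mean over the 6 arrays; vehicle arrays are left and benzyl acetate arrays right of the dotted line, lines only join the values of 1 probe, and legends give each probe's mean log2 signal. In Rpl19 1 probe of 4 reads high on benzyl acetate 2 and 3, in Rpsa all 4 probes are highest there, and in Rps16 1 probe stands up on vehicle 2 only.

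The l forms varied more between arrays than the other members and were dimmer, with median log2 signals of 2.41 against 6.83. Rps12l4 and Rpl3l, the dimmest, had residual SDs of 0.21 and 0.29, where all genes of like signal had a median of 0.25. Rpl30l3, Rpl37al2 and Rpl22l1 had 0.36, 0.24 and 0.10, above such medians of 0.094, 0.089 and 0.078. The bright Rpl37l1 and Rpl36al1 had 0.047 and 0.057, below 0.075 and 0.077. Probes of l forms may share signal with the parent gene or with other near-identical copies, so the values of l forms are uncertain. The 7 tested l forms had a median difference of 0.0085 and a median residual SD of 0.21, and the interval of 3 of them lay inside a 1.25-fold change. Rps12l4, a copy of Rps12, was the member with the largest difference. Its single probe read -5.12, -4.89 and -4.62 with vehicle and -4.26, -4.61 and -4.45 with benzyl acetate. All treated arrays were above all vehicle arrays, benzyl acetate 2 only just, and the difference of 0.44 (0.057 to 0.81) had an unadjusted p of 0.0305 and an adjusted p of 0.709 in limma. Its parent Rps12 differed by 0.024 (-0.17 to 0.22). Rpl22l1, the paralog of the RNA-binding protein RPL22, read 4.78, 4.91 and 4.63 with vehicle and 4.68, 4.69 and 4.74 with benzyl acetate. The groups overlapped, at -0.071 (-0.29 to 0.15), and Rpl22 differed by 0.017 (-0.18 to 0.21). Of the other 3 probes of Rpl22l1, 1 differed by 0.00015 and the others by 0.087 and 0.12, so its direction is not settled.

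Rpl3l, known as the form of RPL3 found in heart and skeletal muscle, was well above background on all 6 arrays with 1 of its 2 probes. That probe read -4.35, -3.88 and -4.32 with vehicle and -4.19, -4.49 and -3.85 with benzyl acetate, with full overlap and a difference of 0.0085 (-0.49 to 0.51), while Rpl3 differed by 0.012 (-0.15 to 0.18). Rpl30l3 had the highest residual SD of all members, 0.36. It read 1.45, 1.05 and 1.60 with vehicle and 1.47, 0.78 and 1.53 with benzyl acetate, so 1 array of each group was low, and differed by -0.11 (-0.71 to 0.50), with Rpl30 at -0.020 (-0.19 to 0.15). Rpl37al2 differed by -0.033 (-0.45 to 0.38) and its parent Rpl37a by 0.076. Rpl36al1 differed by 0.038 (-0.13 to 0.21), Rpl36a by 0.0097 (-0.15 to 0.17) and Rpl37l1 by 0.063 (-0.097 to 0.22).

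Of the 83 genes, 2 l forms were not detected in either group. Rpl27l2 was not well above background on any array. Rpl39l1 was well above background on benzyl acetate 1 only, with both of its probes: they read -2.78 and -3.62 there, and between -8.39 and -6.65 on the other 5 arrays. No fold was formed for it, since the other arrays hold only a bound.

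The other parts of the translation machinery were listed beside the members. Of the translation factors and other TOP genes, 17 of 18 were tested, 0 passed in either direction, 14 were higher and 3 lower, and the median log2 difference was 0.060. Of these 17, 10 were highest on benzyl acetate 3, as were 702 of the 1678 other genes of the members' signal. Those 1678 genes were also more often higher than lower, 1114 against 564, with a median of 0.029. Eef1a1, the factor that brings aminoacyl-tRNA to the ribosome, read 6.68, 6.99 and 6.90 with vehicle and 7.04, 7.02 and 7.06 with benzyl acetate. The groups did not overlap, with vehicle 1 lowest, and the difference was 0.19 (-0.046 to 0.42; adjusted p = 0.770 in limma), or 0.0981 without vehicle 1. Eif4b, which aids the helicase of initiation, differed by 0.13 (-0.035 to 0.30). Among ribosome biogenesis genes, 29 of 32 were tested, 0 passed, 7 were higher and 22 lower, with a median of -0.050. All genes tested were split more evenly, with 16825 higher and 14354 lower. Of the 29 biogenesis genes, 15 were highest on vehicle 1, the array alone on its slide, against 4637 of all 31179 genes. The part of that array in the split was not tested. Nop56, of the box C/D particles that methylate ribosomal RNA, read 2.94, 3.03 and 3.29 with vehicle and 2.88, 2.82 and 2.83 with benzyl acetate. The groups were apart by -0.24 (-0.50 to 0.014; adjusted p = 0.746 in limma), or -0.141 without vehicle 3, and the nucleolar GTPase gene Gnl3 differed by -0.14 (-0.31 to 0.023).

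Genes of mTORC1 and LARP1 control had 15 of 18 tested, 0 past the threshold, 9 higher and 6 lower, and a median of 0.0089. Larp1 itself, Sesn1 and Deptor were not among the genes tested. The log2 differences in this list ran from -0.63 to 0.18. Rps6kb2, an S6 kinase, differed by 0.11 (-0.085 to 0.30) and Sesn2, an inhibitor of mTORC1 signalling, by 0.17 (-0.15 to 0.49). The 67 mitochondrial ribosomal protein genes had 0 past the threshold, 30 higher and 37 lower, a median of -0.014 and a median residual SD of 0.062. Mrpl49 differed by -0.16 (-0.33 to 0.0065) and Mrpl37 by 0.18 (-0.014 to 0.38), in opposite directions and both without overlap.

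**Figure D5:**
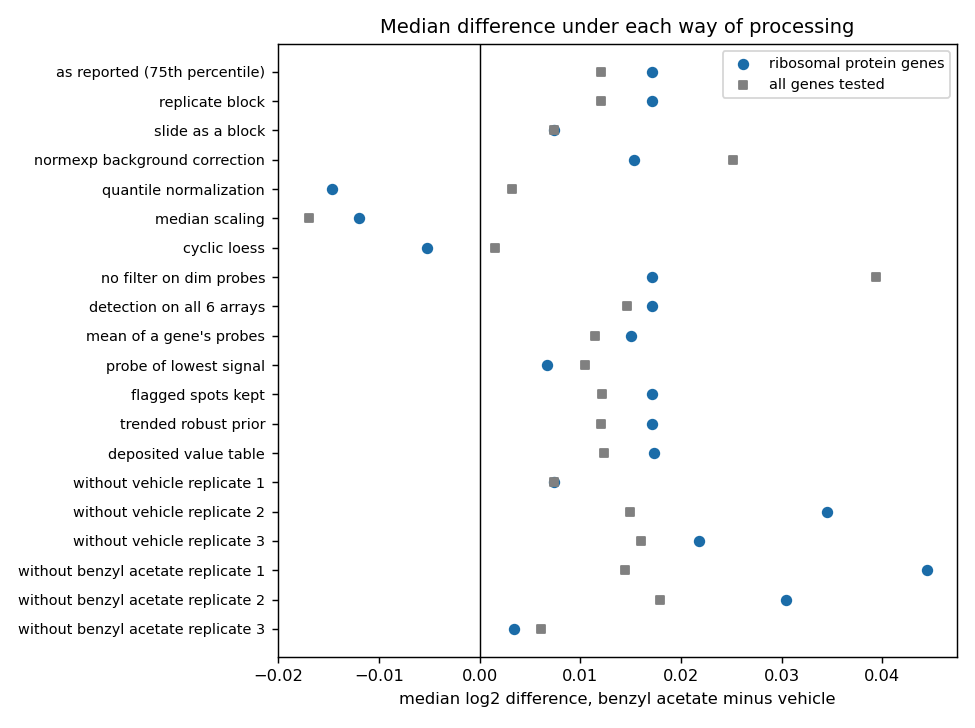
Median log2 difference, benzyl acetate minus vehicle, of the ribosomal protein genes (circles) and of all genes tested (squares) as reported and under each of the 19 other ways of processing. The medians of the members run from -0.015 to 0.044, and those below 0 come from quantile normalization, median scaling and cyclic loess.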

How the data were processed

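Scanner tables of 6 arrays were used. The deposited intensity values are linear processed signals. Agilent Feature Extraction 10.7 is named in the submitters' processing notes, and per the file headers the background had been subtracted, with no scaling of arrays to each other; other columns used are flags of the same software, per the file headers. A deposited table of intensity values equalled these signals after scaling to the 75th percentile (median of each column in vehicle 1 to 3: 0.1102, 0.111, 0.111; in benzyl acetate 1 to 3: 0.1148, 0.1118, 0.1125).

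From each log2 signal the 75th percentile of that array's 61537 probes other than controls was subtracted, which hides any shift common to most RNAs. A probe entered when well above background on all 3 arrays of a group (42355 probes); genes with several probes were represented by the brightest on average. Probes were named through RefSeq accessions of the GRCr8 assembly (28206 probes, 15645 symbols). The array grid names an older build, so coordinates are those of the RefSeq promoters only. Near-identical copies may cross-hybridise.

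Differences were fitted with limma 3.58.1, run under R 4.3.3 (lmFit, eBayes, both groups, Benjamini-Hochberg over all genes, threshold 0.05), which also gave SEs and 95% intervals; the fit was tested on simulated data. The number of arrays limits the precision. Named genes were the 12 members of lowest p, every l form with its parent, listed genes by role, the 3 steadiest and 3 most variable members and 2 genes of lowest p per other list; Rps4x, Rps16, Rpl28, Rpl27l2, Rpl39l1 and the values of second probes were chosen after their values were seen. Of the lists beside the members, 1 is not reported here. Members and lists were chosen with earlier results of these data known.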

Additional observations from a re-analysis of the deposited data

How the results depend on the processing

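No member passed the threshold under any of the 19 alternatives (limma). The count of all genes called was 2 with normexp background correction, run on the median spot signal, and 0 to 2 when 1 replicate was left out (2 without benzyl acetate replicate 1). The l form median was -0.0654 with the slide as a block, which sets vehicle replicate 1 aside, and -0.0654 to 0.0741 when 1 replicate was left out. The member median stayed between -0.0146 and 0.0444, within 0.035 log2 of the reported value (1 SD between arrays), and was below 0 under quantile normalization (-0.0146), median scaling (-0.012) and cyclic loess (-0.0052). The large minus small subunit median ran from -0.00875 to 0.0222. With the replicate block 0 members and 0 genes passed and the member median was 0.0171. After the group means were taken off, same-numbered samples correlated at -0.108, 0.0075 and 0.00095. These values gave no sign of a pairing by number, but with 3 arrays a group they cannot exclude one. Of 47 named genes, 27 changed sign under at least 1 alternative and 0 passed. Rpl19 was -0.039 with its dimmest probe and 0.622 without benzyl acetate replicate 1, and Rpl36a was 0.458 with its dimmest probe. With 3 arrays a group, differences within the intervals given cannot be seen.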
